A study of Mus musculus with 6 samples.

Results

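Neutrophil granule genes and the neutrophil alarmins, 10 genes in all, were followed in infarcted mouse hearts: *S100a8*, *S100a9*, *Csf3r*, *Ngp*, *Ltf*, *Camp*, *Lcn2*, *Retnlg*, *Elane* and *Mpo*. They were looked up by gene name, and each of the 10 names matched 1 row among the 54532 genes of the table. Bulk RNA sequencing had been performed on peri-infarcted and infarcted heart tissue collected on day 7 after ligation of the left anterior descending coronary artery. How much of each a library held is not stated in the paper. Wild-type (WT) mice of the C57BL/6 strain (C57BL/6J in the study's methods) gave 3 libraries and *Crlf2-/-* mice, labelled TSLPR KO and named KO in the plots, gave the other 3. Both groups carried the ligation, and no library from an unligated heart is used here. The WT mice were adult males bought from one supplier, whereas the knockout was made by another company on the same background, so genotype and supplier cannot be told apart. *Crlf2* encodes the receptor chain that binds thymic stromal lymphopoietin (TSLP), and the question was whether transcripts of neutrophil granules differed between hearts with and without it. By flow cytometry, the paper reported significantly more neutrophils, monocytes and macrophages per gram of *Crlf2-/-* heart after infarction. Cell counts and transcript levels are unlike measures and were not compared here.

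Neutrophils are short-lived white blood cells that leave the bone marrow loaded with preformed granules and enter the injured heart early after infarction. Granule proteins are made in order as the cell matures. Azurophil granules, with myeloperoxidase and elastase, are filled first, at the promyelocyte stage, and specific granules, with lactoferrin and cathelicidin, follow under the transcription factor C/EBPε. The mature cell in tissue has mostly stopped making granule mRNA but still holds transcripts of *S100a8*, *S100a9* and the receptor *Csf3r*. Monocytes and macrophages share several of these transcripts, so that none of the 10 is a measure of neutrophils alone.

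No difference between *Crlf2-/-* and WT hearts was called for any of the 10 genes. Those with enough fragments for a test were 6 genes, *S100a8*, *S100a9*, *Csf3r*, *Retnlg*, *Lcn2* and *Mpo*, a test being made where 3 or more libraries held 10 or more fragments. Of these 6 tested genes, 0 were called different by limma (adjusted p up to 0.05 and a log2 fold change of 0.5 or more in either direction), where 0.0129% of all 15520 tested genes were called. At an unadjusted limma p under 0.05 there were 0 of 6, against 6.58% of all tested genes, and limma's voom on the fragments also called 0 of 6. The fold change was positive for 3 of the 6 and negative for 3, with a median of -0.03 on the log2 scale against 0.00 for all tested genes. Leaving out WT replicate 1 gave a median of 0.20, and leaving out *Crlf2-/-* replicate 3 gave 0.15. The other 4 genes, *Ngp*, *Ltf*, *Camp* and *Elane*, were too low for the test and are given as fragments. In bulk samples, fewer cells of a type and less RNA per cell cannot be told apart.

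Values are FPKM as deposited, fragments scaled to gene length and library size, so that genes can be compared with each other. Averaged over the 6 libraries, *Csf3r* had the highest level of the 10 genes at 9.50 FPKM, followed by *S100a9* at 5.69, *S100a8* at 3.53, *Retnlg* at 1.31 and *Lcn2* at 0.873. Below them came *Ngp* at 0.225, *Mpo* at 0.147, *Camp* at 0.0791, *Ltf* at 0.0633 and *Elane* at 0.0454. Each gene overlapped with its neighbour in this order over the 6 libraries. Every library of *Csf3r* lay above every library of *S100a8*, however, and every library of *S100a8* lay above every library of *Lcn2*. Among 22046 protein-coding genes, *Csf3r* ranked 3923 and *Elane* 14864. Fold changes were taken from log2(FPKM + 0.1), and on that scale differences between low values come out too small.

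**Figure D1:**
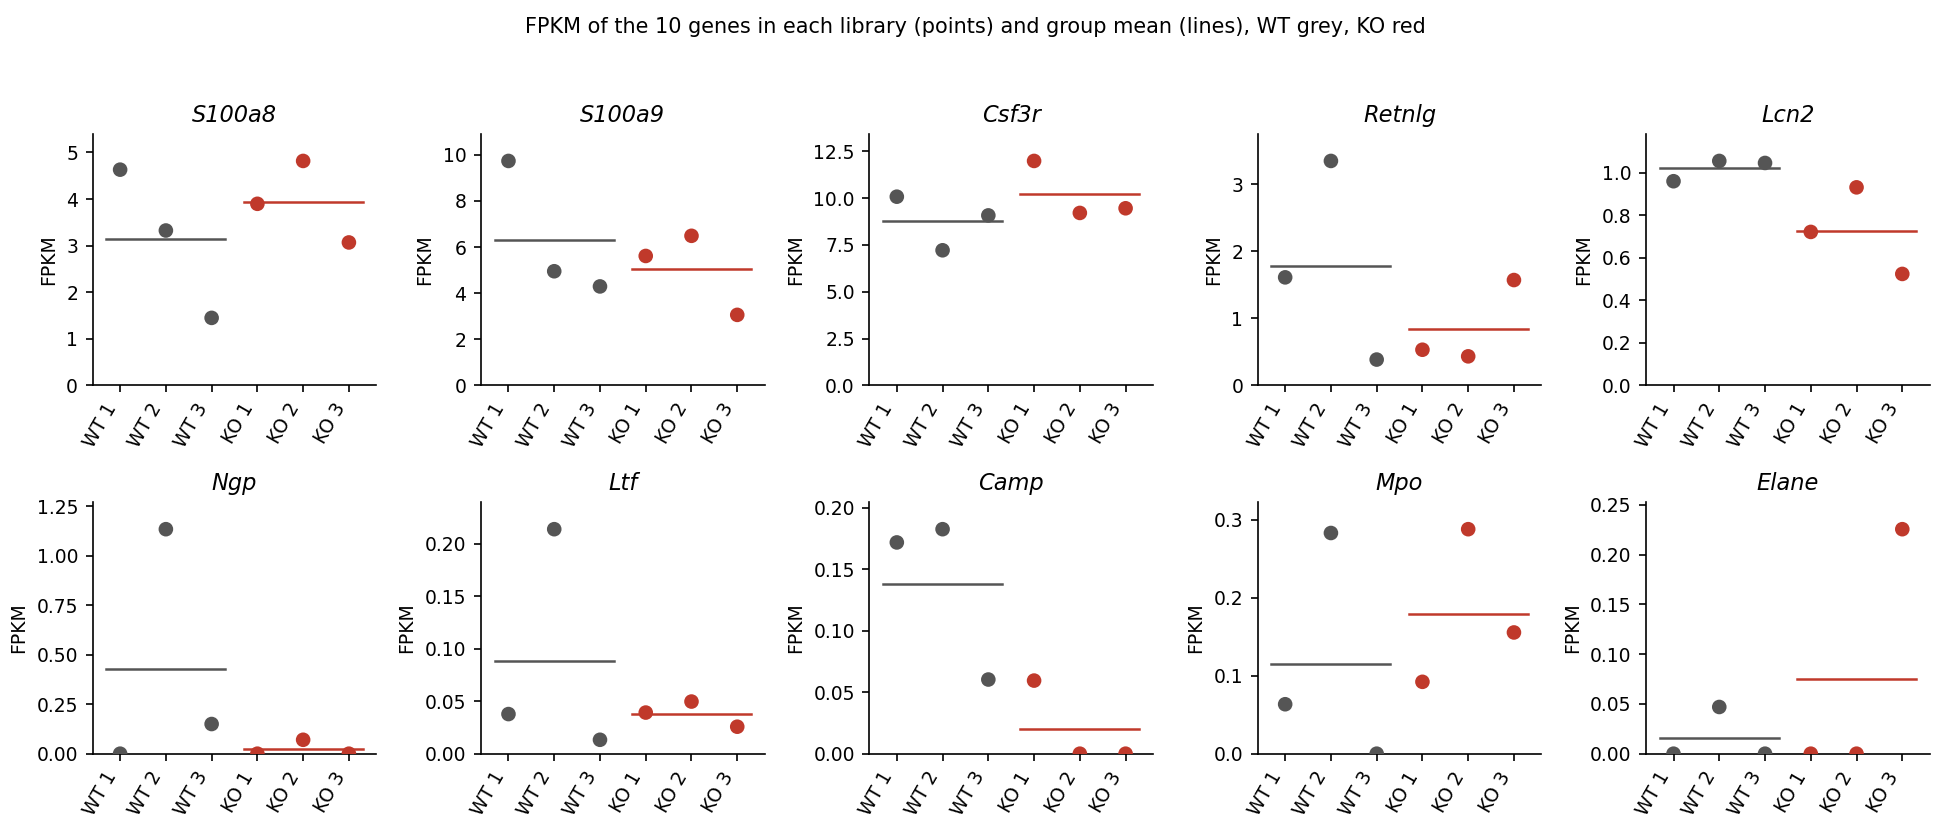
FPKM of each of the 10 genes (y axes, each from 0) in the 3 WT (grey) and 3 KO (red) libraries (x axes), with lines at the group means. Points of both groups overlap except for Lcn2, where all 3 KO libraries lie lower, and for Camp, where WT 3 and KO 1 hold 1 fragment each.

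*S100a8* and *S100a9* code for calgranulin A and B, calcium-binding proteins that join as calprotectin and act as alarmins once released. In the coordinates of the deposited table, which match GRCm38, *S100a8* lay on the plus strand at chr3:90668978-90670035 and *S100a9* on the minus strand at chr3:90692632-90695721, with 22.6 kb between them. *S100a8* was at 4.63, 3.33 and 1.45 FPKM in the 3 WT hearts and at 3.90, 4.82 and 3.07 FPKM in the 3 *Crlf2-/-* hearts. The lowest of the 6 was WT replicate 3, with 22 fragments, the highest WT and *Crlf2-/-* libraries were nearly level, and the groups overlapped. Group means were 3.14 ± 1.60 FPKM among WT hearts and 3.93 ± 0.875 FPKM among *Crlf2-/-* hearts (SD, n = 3 each). The log2 fold change was 0.44 (standard error 0.38, 95% interval -0.43 to 1.31, limma adjusted p = 0.953). Without WT replicate 3 it was -0.02, so its sign rested on that library.

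*S100a9* was at 9.73, 4.95 and 4.29 FPKM in WT and at 5.61, 6.49 and 3.06 FPKM in *Crlf2-/-* hearts. WT replicate 1 stood above the other 5 libraries, and *Crlf2-/-* replicate 3 was the lowest, with overlap between the groups. Means were 6.33 ± 2.97 FPKM in WT and 5.05 ± 1.78 FPKM in *Crlf2-/-* hearts (SD, n = 3 each), a log2 fold change of -0.29 (standard error 0.36, 95% interval -1.11 to 0.54, limma adjusted p = 0.988). Leaving out WT replicate 1 gave 0.07, and leaving out *Crlf2-/-* replicate 3 gave 0.03. The pair together held 191, 106 and 71 fragments in WT against 125, 157 and 84 in *Crlf2-/-* libraries, which came to 368 and 366 per group.

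Within each heart, *S100a8* was mostly the lower of the pair. The ratio of *S100a8* to *S100a9* FPKM was 0.476, 0.672 and 0.338 in WT and 0.694, 0.743 and 1.00 in *Crlf2-/-* libraries. All 3 *Crlf2-/-* ratios lay above the 3 WT ratios, by 0.32 between the group means, although WT replicate 2 and *Crlf2-/-* replicate 1 were close. This ratio was picked after its values were seen and was not tested. Across the 6 libraries, Pearson's r between the log2 levels of the pair was 0.59, given as a description of libraries that include both genotypes.

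**Figure D2:**
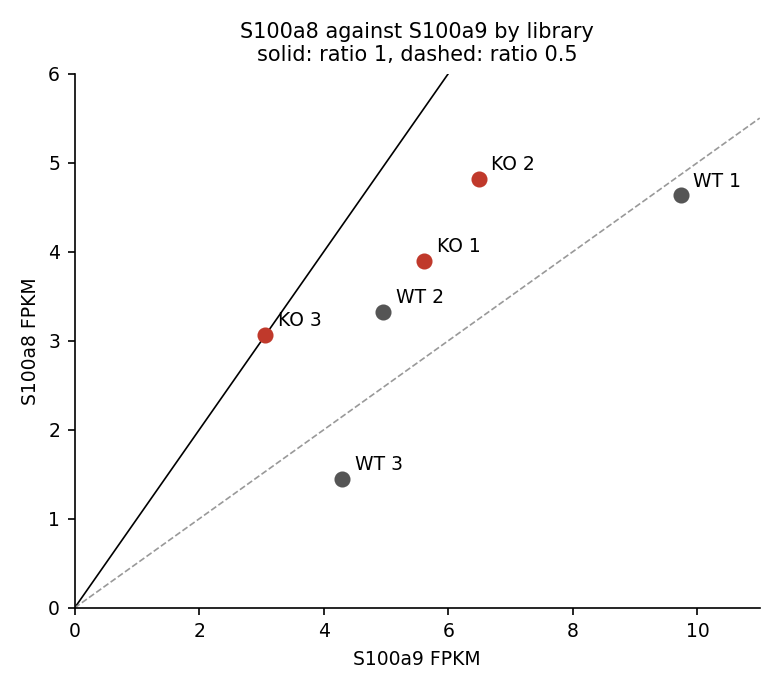
S100a8 FPKM (y axis) against S100a9 FPKM (x axis), 1 point per library, WT grey and KO red, with a solid line where both are equal and a dashed line where S100a8 is at 0.5 of S100a9. WT 1 and WT 3 lie under the dashed line and KO 3 lies on the solid line, at 3.07 and 3.06 FPKM.

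The bases just before both genes are shown because the pair lies side by side and is read from opposite strands, and those of *Ngp* and *Ltf* because these granule genes were both highest in WT replicate 2, as described below. Each stretch ends at the base before the start that the deposited table gives, was read from the RefSeq promoter table for GRCm38.p6, and is written 5′ to 3′ on the gene's own strand. Capitals mark TTGCNNAA on either strand, a loose form of the sequence that C/EBP factors bind.
S100a8, chr3:90668821-90668977, plus strand: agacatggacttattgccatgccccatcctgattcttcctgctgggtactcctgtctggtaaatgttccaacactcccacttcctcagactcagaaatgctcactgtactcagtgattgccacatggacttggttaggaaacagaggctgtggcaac
S100a9, chr3:90695722-90695971, minus strand: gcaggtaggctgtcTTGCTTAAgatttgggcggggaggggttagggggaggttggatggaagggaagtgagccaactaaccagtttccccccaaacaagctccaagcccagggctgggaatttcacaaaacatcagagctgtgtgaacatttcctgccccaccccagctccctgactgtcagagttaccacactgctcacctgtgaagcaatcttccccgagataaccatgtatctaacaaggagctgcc
Ngp, chr9:110419558-110419746, plus strand: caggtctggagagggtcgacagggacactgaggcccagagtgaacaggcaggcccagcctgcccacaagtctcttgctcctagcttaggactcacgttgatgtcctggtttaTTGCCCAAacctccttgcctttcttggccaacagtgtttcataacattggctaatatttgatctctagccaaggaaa
Ltf, chr9:111019042-111019270, plus strand: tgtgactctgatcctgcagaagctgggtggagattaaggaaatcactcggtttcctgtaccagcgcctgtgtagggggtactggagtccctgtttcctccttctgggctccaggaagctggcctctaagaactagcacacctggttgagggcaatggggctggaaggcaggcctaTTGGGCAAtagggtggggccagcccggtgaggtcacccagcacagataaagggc
No match stood in the *S100a8* stretch and 1 stood in each of the other 3. In windows of 250 bases before the RefSeq start, the letters occurred in 5 of the 10 genes, *S100a9*, *Ngp*, *Ltf*, *Lcn2* and *Retnlg*, and in 9.56% of 32851 promoters. Such matches describe letters and show neither a bound site nor a cause.

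*Csf3r* codes for the receptor of granulocyte colony-stimulating factor, which drives neutrophil production and survival, and lies on the plus strand at chr4:126024550-126044440. It was the most deeply covered of the 10 genes, with between 564 and 959 fragments per library. Its level was 10.1, 7.21 and 9.07 FPKM in WT and 12.0, 9.21 and 9.45 FPKM in *Crlf2-/-* hearts. *Crlf2-/-* replicate 1 was the highest and WT replicate 2 the lowest, the other libraries lay close together, and the groups overlapped. With means of 8.79 ± 1.45 FPKM in WT and 10.2 ± 1.54 FPKM in *Crlf2-/-* hearts (SD, n = 3 each), the log2 fold change was 0.22 (standard error 0.16, 95% interval -0.15 to 0.59, limma adjusted p = 0.934). The interval was the narrowest of the 6 tested genes. Without WT replicate 2 the fold change was 0.08.

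*Retnlg*, resistin-like gamma, is a secreted protein made by neutrophils and by fat, with its gene on the plus strand at chr16:48872621-48874496. Its level was 1.61, 3.35 and 0.386 FPKM in WT and 0.532, 0.434 and 1.57 FPKM in *Crlf2-/-* hearts. WT replicates 1 and 2 and *Crlf2-/-* replicate 3 were high and the other 3 libraries low, so high and low hearts occurred in both groups. The highest library was 8.68 times the lowest. Means were 1.78 ± 1.49 FPKM in WT and 0.846 ± 0.630 FPKM in *Crlf2-/-* hearts (SD, n = 3 each), and the log2 fold change was -0.78 (standard error 0.71, 95% interval -2.41 to 0.85, limma adjusted p = 0.964). It was -1.55 without WT replicate 3 and -0.14 without WT replicate 2. An adipose tissue list of *Adipoq*, *Cfd*, *Plin1*, *Cidec* and *Retn*, written after these values were seen, summed to 7.86, 70.3 and 11.3 FPKM in WT and 1.69, 1.34 and 32.3 FPKM in *Crlf2-/-* libraries. WT replicate 2 and *Crlf2-/-* replicate 3, the highest of their groups in *Retnlg*, were also the highest of their groups in this list. WT replicate 1, however, was close to *Crlf2-/-* replicate 3 in *Retnlg* but far lower in the list, at 7.86 against 32.3 FPKM. WT replicate 3, with the lowest *Retnlg*, lay above WT replicate 1 in the list. None of the 5 adipose genes was at 0 in all libraries, and their part in the *Retnlg* values was not tested.

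*Lcn2* codes for lipocalin 2, a specific granule protein that binds bacterial siderophores and is also made by other stressed cells, and its gene lies on the minus strand at chr2:32384633-32388252. It was at 0.960, 1.06 and 1.05 FPKM in WT and at 0.722, 0.932 and 0.524 FPKM in *Crlf2-/-* hearts. All 3 *Crlf2-/-* libraries fell short of the lowest WT library, the only such gene among the 6 tested, where 6.45% of all tested genes were lower in all 3 *Crlf2-/-* libraries and 5.24% higher in all 3. An exact two-sided permutation test gave p = 0.1, the smallest that 3 libraries against 3 allow. Means were 1.02 ± 0.0525 FPKM among WT hearts and 0.726 ± 0.204 FPKM among *Crlf2-/-* hearts (SD, n = 3 each), and the log2 fold change was -0.47 (standard error 0.22, 95% interval -0.98 to 0.04, limma adjusted p = 0.807). *Crlf2-/-* replicate 2, with 57 fragments, came within 1 fragment of WT replicate 1, with 58. Leaving out *Crlf2-/-* replicate 3 gave -0.28.

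The other 3 specific granule genes, *Ngp*, *Ltf* and *Camp*, lay on chromosome 9, with 570 kb between *Camp* and *Ngp* and 596 kb between *Ngp* and *Ltf*, and were nearly absent outside 1 heart. *Ngp* codes for neutrophilic granule protein of the cathelicidin and cystatin family (plus strand, chr9:110419747-110423012). It had 0, 30 and 4 fragments in the 3 WT libraries against 0, 2 and 0 in the 3 *Crlf2-/-* libraries. The exact 95% Poisson interval of WT replicate 2, from 20.2 to 42.8 fragments, lay above those of the other 5 libraries. Limits for a count of 0 are given as a floor of 3 fragments, close to the one-sided 95% limit, whereas the two-sided intervals of the plot reach 3.69 fragments. For *Ngp* this floor corresponds to 0.107 to 0.111 FPKM.

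*Ltf* (plus strand, chr9:111019271-111042767) codes for lactoferrin, the iron-binding protein of specific granules, and had 3, 16 and 1 fragments in WT against 3, 4 and 2 in *Crlf2-/-* libraries. *Camp* (minus strand, chr9:109847379-109849617), the cathelicidin antimicrobial peptide, had 3, 3 and 1 fragments in WT against 1, 0 and 0 in *Crlf2-/-* libraries. *Camp* FPKM did not overlap between the groups, but WT replicate 3 and *Crlf2-/-* replicate 1 held 1 fragment each and differed through library size alone. Together *Ngp*, *Ltf* and *Camp* had 73 fragments in all, 67.1% of them in WT replicate 2. Leaving that heart aside, the remaining 5 libraries held 6 and 6 fragments of these genes in WT, set against 4, 6 and 2 in *Crlf2-/-* hearts. Intervals and floors cover counting error only.

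**Figure D3:**
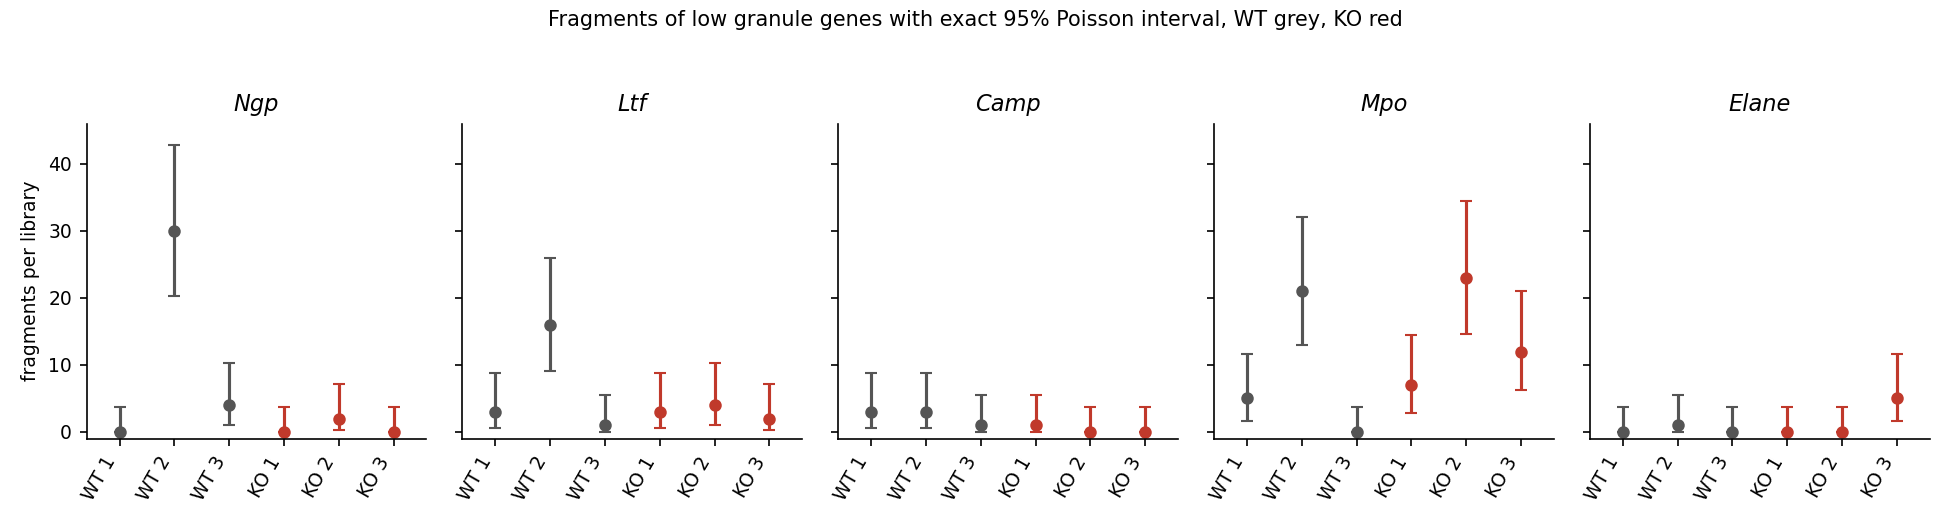
Fragments (y axis) of 5 low granule genes in each library (x axes), WT grey and KO red, with exact 95% Poisson intervals. WT 2 stands out for Ngp with 30 and Ltf with 16 fragments, whereas Mpo is spread over both groups and Elane has 5 fragments in KO 3.

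*Mpo* and *Elane* belong to azurophil granules. *Mpo*, myeloperoxidase, forms hypochlorous acid from hydrogen peroxide and chloride, and its gene lies on the plus strand at chr11:87793581-87804413. It had 5, 21 and 0 fragments in WT against 7, 23 and 12 in *Crlf2-/-* libraries, or 0.0634, 0.283 and 0 FPKM against 0.0922, 0.288 and 0.155 FPKM. High and low libraries occurred in both groups, and the floor of 3 fragments for the 0 in WT replicate 3 corresponds to 0.0401 FPKM. The log2 fold change was 0.54 (standard error 0.49, 95% interval -0.59 to 1.66, limma adjusted p = 0.964). It was 0.08 with a pseudocount of 1 and 1.72 with voom. Single libraries moved it less than voom did, to 0.10 without WT replicate 3 and 1.06 without WT replicate 2. The antisense gene *Gm11505* overlaps *Mpo*, had 0 fragments in all libraries, and cannot be told apart from it if strand was not used in counting.

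*Elane* (plus strand, chr10:79886247-79888215), neutrophil elastase, a serine protease, had 0, 1 and 0 fragments in WT against 0, 0 and 5 in *Crlf2-/-* libraries. All but 1 of its 6 fragments were thus in *Crlf2-/-* replicate 3, a heart in which *Ngp* and *Camp* were at 0. The azurophil genes *Prtn3*, *Prss57* and *Ctsg* complete the azurophil list, in which 2 of 5 genes were tested and 0 called. *Prtn3*, proteinase 3, the neighbour of *Elane*, had 21, 36 and 29 fragments in WT against 123, 28 and 14 in *Crlf2-/-* libraries. Its high value in *Crlf2-/-* replicate 1, with a Poisson interval of 102 to 147 fragments, was not shared by *Mpo* or *Elane*. Its log2 fold change was 0.36 (standard error 0.64, limma adjusted p = 0.996) and was -0.46 without that library. *Prss57* and *Ctsg* averaged 0.0207 and 0.0138 FPKM.

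**Figure D4:**
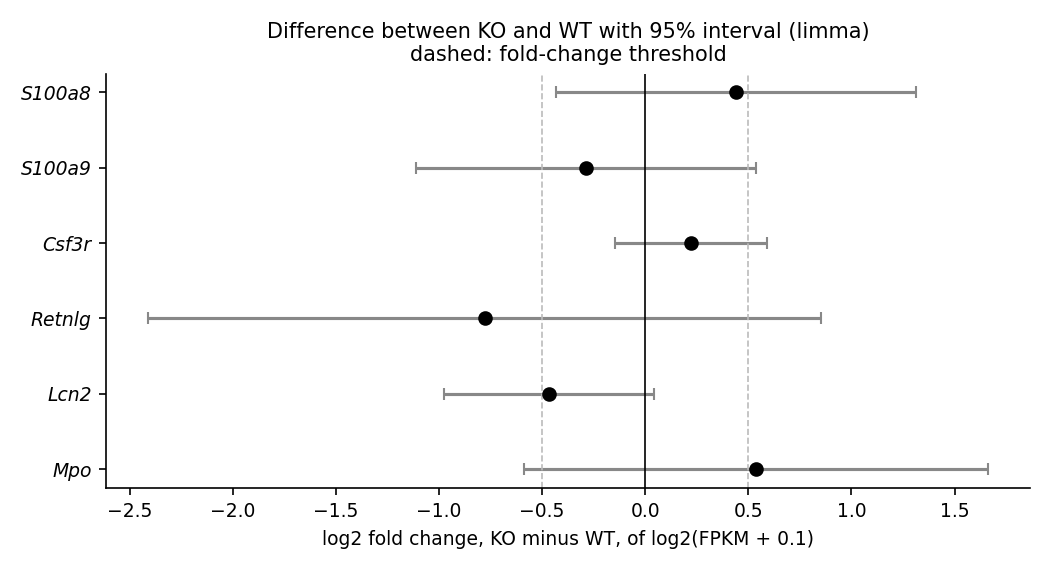
Log2 fold change of log2(FPKM + 0.1), KO minus WT (x axis), of the 6 tested genes (y axis), with 95% intervals from limma and dashed lines at the threshold of 0.5 in each direction. All 6 intervals include 0, and that of Lcn2 reaches from -0.98 to 0.04.

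Taken heart by heart, the 10 genes did not rise and fall as 1 block. WT replicate 2 had the highest FPKM of *Ngp*, *Ltf*, *Camp*, *Lcn2* and *Retnlg*, yet the lowest *Csf3r* of the 6 libraries. Its lead was within 1 fragment for *Lcn2*, where WT replicate 3 also had 60, and for *Camp*, where WT replicate 1 also had 3. WT replicate 1 led in *S100a9*. WT replicate 3 led in none of the 10 and had the lowest *S100a8*, *Retnlg*, *Ltf* and *Mpo*. Among the *Crlf2-/-* hearts, replicate 1 led in *Csf3r*, replicate 2 in *S100a8* and *Mpo*, and replicate 3 in *Elane*. All 10 genes summed to 27.3, 21.8 and 16.5 FPKM in WT and 22.9, 22.3 and 18.1 FPKM in *Crlf2-/-* hearts, overlapping between the groups.

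Granule genes alone gave another order of the libraries. The 4 specific granule genes summed to 1.17, 2.59 and 1.27 FPKM in WT and 0.821, 1.05 and 0.550 FPKM in *Crlf2-/-* hearts, lower in all 3 of the latter. *Lcn2* made up most of this sum outside WT replicate 2. *Mpo* and *Elane* summed to 0.0634, 0.330 and 0 FPKM in WT and 0.0922, 0.288 and 0.381 FPKM in *Crlf2-/-* hearts, with overlap. Across the 6 libraries, *Ngp* followed *Ltf* (Pearson's r = 0.85 on the log2 scale) and ran against *Csf3r* (r = -0.88). Both are descriptions over 6 libraries, and WT replicate 2 is the extreme point in each.

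By the measure of Pearson's r over 6 libraries on the log2 scale, the tested genes most like *S100a9* were *Emb*, *Atp6v1b2*, *Tmem273*, *Ccr3* and *Fam50a*, with r between 0.983 and 0.989. *Emb*, for example, was at 6.51, 4.81 and 4.19 FPKM in WT and 5.10, 5.23 and 3.40 FPKM in *Crlf2-/-* hearts, the same order of the 6 hearts as for *S100a9*. The genes most like *Ngp* were *Amd2*, *Eef1akmt3*, *Ndufaf7*, *Cyld* and *Tmbim1*, with r between 0.957 and 0.976. With 15520 genes compared over 6 libraries, high values of r arise for many genes.

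Other genes of the neutrophil programme gave little more. *Ly6g*, the surface marker by which mouse neutrophils are usually gated, had 0, 0 and 2 fragments in WT and 0 in each *Crlf2-/-* library, where the floor of 3 fragments lies at 0.144 FPKM or less. It was named after its values were seen, as was *Fpr2*. Of 14 genes in the mature neutrophil list, 11 were tested and 0 called, 6 with a positive and 5 with a negative fold change, and a median of 0.08. That median was -0.27 without WT replicate 3 and 0.33 without WT replicate 1. The list's most abundant genes were *Lrg1*, at 17.8 ± 4.72 FPKM among WT hearts and 12.0 ± 3.63 FPKM among *Crlf2-/-* hearts (SD, n = 3 each), and *G0s2*, at 12.2 ± 2.98 and 10.04 ± 2.67 FPKM. *Fpr1*, a receptor for formylated bacterial peptides, was at 1.54 ± 0.595 and 2.35 ± 1.25 FPKM.

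*Fpr2*, a formyl peptide receptor that also binds cathelicidin, was at 1.14, 0.890 and 1.34 FPKM in WT and at 2.57, 2.18 and 1.40 FPKM in *Crlf2-/-* hearts. Every *Crlf2-/-* library lay above every WT library, with WT replicate 3 and *Crlf2-/-* replicate 3 close to each other. The log2 fold change was 0.80 (standard error 0.25, limma adjusted p = 0.514, unadjusted 0.012), which did not pass the threshold.

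The specific and gelatinase granule list held 11 genes, of which 6 were tested and 0 called, 2 with a positive and 4 with a negative fold change. Its median was -0.28, without a test of the list. *Hp*, haptoglobin, a haemoglobin-binding plasma protein that neutrophils store and that liver and fat also make, was its most abundant gene at 46.4, 53.5 and 17.7 FPKM in WT and 17.2, 14.2 and 21.8 FPKM in *Crlf2-/-* hearts. WT replicates 1 and 2 stood above the other 4 libraries, and the log2 fold change was -1.01 (standard error 0.39, limma adjusted p = 0.689). *Chil3*, a chitinase-like protein of neutrophils and macrophages, had a log2 fold change of 0.22 (limma adjusted p = 0.996) and of -0.23 without *Crlf2-/-* replicate 2. *Mmp9*, the gelatinase of the tertiary granules, had 0.56 (limma adjusted p = 0.977), which was 0.00 without WT replicate 2 and 1.06 without WT replicate 1. In the NADPH oxidase list, which makes the oxidative burst, 6 of 6 genes were tested and 0 called, with a median of -0.01 (0.15 without WT replicate 1). Its core subunits *Cyba* and *Cybb* were at 123 ± 38.0 and 44.2 ± 5.39 FPKM (SD, n = 3) in WT and 122 ± 15.8 and 48.8 ± 7.59 FPKM in *Crlf2-/-* hearts, and these are shared with macrophages.

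Upstream of the granules, 5 of 6 transcription factors of granulopoiesis were tested, 0 were called, all 5 had positive fold changes and the median was 0.08. *Cebpa*, the most abundant, was at 40.8 ± 8.46 FPKM among WT hearts and 42.1 ± 3.06 FPKM among *Crlf2-/-* hearts (SD, n = 3 each), but *Cebpe*, which codes for C/EBPε, was between 0 and 0.109 FPKM and was not tested. Of 10 growth factors and chemoattractants that draw neutrophils, 6 were tested and 0 called, 2 with a positive and 4 with a negative fold change. *Cxcl5*, a ligand of *Cxcr2*, was at 5.57, 2.70 and 3.39 FPKM in WT and 3.05, 1.73 and 1.93 FPKM in *Crlf2-/-* hearts, with a log2 fold change of -0.75 (standard error 0.30, limma adjusted p = 0.709). WT replicate 1, the library with the most *S100a9*, was the highest in *Cxcl5*, but *Crlf2-/-* replicate 2, the next in *S100a9*, was the lowest in *Cxcl5*. *Cxcl1*, of the same list, lay higher in every *Crlf2-/-* library, at 0.829 to 1.08 FPKM in WT and 1.18 to 1.49 FPKM in *Crlf2-/-* hearts. Its log2 fold change was 0.37 (standard error 0.18, limma adjusted p = 0.827). *Il1b* was at 3.96 ± 0.149 FPKM among WT hearts and 3.93 ± 1.58 FPKM among *Crlf2-/-* hearts (SD, n = 3 each). *Csf3*, the ligand of *Csf3r*, was at 0 in 4 libraries and reached 0.0628 FPKM. *Cebpe*, *Csf3* and *Cxcl1* were named after their values were seen.

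Receptors for the proteins of the 10 genes were all measured, 7 of 7 tested and 0 called, with a median of -0.02 that was between 0.02 and 0.16 with any 1 library left out. *Tlr4* and *Ager* bind calprotectin, *Bsg* binds *S100a9*, *Cd36* takes part in its binding, *Lrp1* takes up lactoferrin, and *Slc22a17* is a receptor for lipocalin 2. *Bsg* was at 244 ± 34.3 FPKM among WT hearts and 237 ± 27.6 FPKM among *Crlf2-/-* hearts (SD, n = 3 each). *Cd36*, the fatty acid carrier, was lower in every *Crlf2-/-* library, at 84.8 ± 7.03 FPKM among WT hearts and 65.5 ± 8.10 FPKM among *Crlf2-/-* hearts (SD, n = 3 each), without passing the threshold (log2 fold change -0.37, standard error 0.13, limma adjusted p = 0.619). Inhibitors of granule proteases had 4 of 6 genes tested and 0 called, with a median of -0.30. *Serpina3g*, of a multigene family whose reads may be shared between copies, had the lowest fold change of these at -0.64 (standard error 0.22, limma adjusted p = 0.575).

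Within the S100 family of 16 genes, 10 were tested and 0 called, 4 with a positive and 6 with a negative fold change. The 2 alarmins were far from its most abundant members, since *S100a11* averaged 510 FPKM, *S100a6* 101 FPKM and *S100a10* 94.3 FPKM over the 6 libraries. *S100a1*, the family member of heart muscle cells, named after its values were seen, was lower in every *Crlf2-/-* library at 82.3, 118 and 98.9 FPKM in WT and 67.0, 64.7 and 75.6 FPKM in *Crlf2-/-* hearts. Its log2 fold change of -0.51 (standard error 0.15, limma adjusted p = 0.440) did not pass the threshold.

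**Figure D5:**
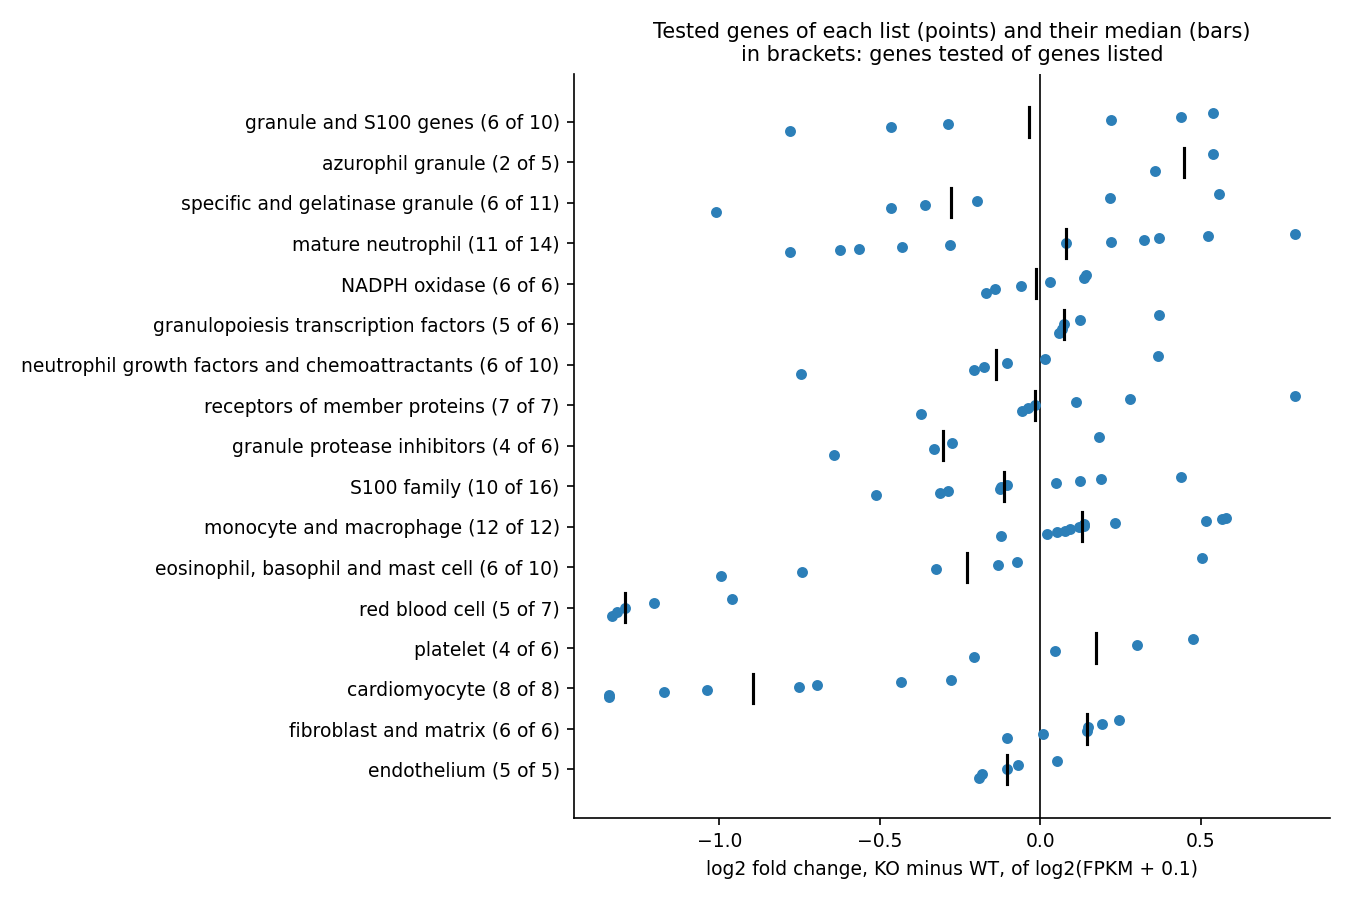
Log2 fold change, KO minus WT (x axis), of each tested gene (points) of 17 lists (y axis, with genes tested of genes listed), and list medians (bars). None of the genes was called, red blood cell genes lie farthest to the left with a median of -1.29, and the granule and S100 genes lie on both sides of 0.

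Markers of other cells in the tissue were read beside these genes. All 12 monocyte and macrophage genes were tested and 0 called, 11 with a positive and 1 with a negative fold change and a median of 0.13. *Lyz2*, lysozyme, which neutrophils also make, was at 1927 ± 631 FPKM among WT hearts and 1726 ± 369 FPKM among *Crlf2-/-* hearts (SD, n = 3 each), whereas *Plac8* and *Ly6c2* (which has a near-identical neighbour), named after their values were seen, lay higher in every *Crlf2-/-* library, with log2 fold changes of 0.52 and 0.57 (limma adjusted p = 0.375 and 0.483). The list summed to 4239, 3187 and 2415 FPKM in WT and 3504, 3333 and 2850 FPKM in *Crlf2-/-* hearts. WT replicate 1 had the highest sum and the most *S100a9*, but *Lyz2* alone gave 2575 FPKM of that sum. *Lyz2*, *C1qb*, *Cd68* and *Adgre1* were highest in that library, whereas *Ccr2*, *Cx3cr1* and *Ly6c2* were lowest there. *Cd68*, *Adgre1*, *Ccr2* and *Cx3cr1* were named after their values were seen. None of the list's genes was at 0 in all libraries, and the list's part in the S100 values was not tested. In the eosinophil, basophil and mast cell list, 6 of 10 genes were tested and 0 called, with sums of 5.64 to 6.97 FPKM in WT and 3.76 to 6.64 FPKM in *Crlf2-/-* hearts. Platelet genes had 4 of 6 tested and 0 called, with sums of 35.8 to 85.5 FPKM in WT and 53.2 to 88.2 FPKM in *Crlf2-/-* hearts.

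Red blood cell genes, which mark how much blood a sample held, had lower values in the *Crlf2-/-* libraries. Of 7 genes, 5 were tested and 0 called. For all 5, however, the *Crlf2-/-* libraries lay under the lowest WT library, as they did for 6.45% of all tested genes. The list summed to 226 to 370 FPKM in WT and 85.0 to 162 FPKM in *Crlf2-/-* hearts. *Hbb-bs* had a log2 fold change of -1.29 (standard error 0.29, limma adjusted p = 0.254) and *Hba-a1*, which has a near-identical copy, of -1.32 (standard error 0.25, limma adjusted p = 0.191). Circulating neutrophils come with the same blood, and *Lcn2* was lower in the same libraries. Of the 6 tested granule and S100 genes, however, 3 had a positive and 3 a negative fold change. The platelet list had a median of 0.17. The part of blood in the *Lcn2* values was not tested. All 8 cardiomyocyte genes were tested and had negative fold changes, with a median of -0.90 and 0 called, and summed to 1105 to 2078 FPKM in WT and 713 to 1425 FPKM in *Crlf2-/-* hearts. Fibroblast and matrix genes, 6 of 6 tested and 0 called, had a median of 0.15 and endothelial genes, 5 of 5 tested and 0 called, of -0.10.

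Between 18508646 and 19682428 fragments per library lay on genes. *Crlf2* had 917, 813 and 707 fragments in WT against 437, 651 and 667 in *Crlf2-/-* libraries, so transcripts assigned to it were present in all 6 (log2 fold change -0.52, limma adjusted p = 0.521). The extraction text of the labels speaks of another tissue than the heart named by the tissue label. The 7 retina markers were at most 0.132 FPKM when summed in any library and none was tested, whereas the 8 cardiomyocyte genes summed to at least 713 FPKM. The labels give no animal numbers, so the p-values measure the spread between these libraries.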

How the data were processed

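RNA of peri-infarcted and infarcted heart tissue on day 7 was sequenced in 3 WT and 3 *Crlf2-/-* libraries. The authors trimmed reads with fastp, aligned them with HISAT2 2.0.5, counted fragments with featureCounts, and deposited FPKM, fragments scaled to gene length and to mapped fragments. The submitters' processing notes list the builds hg38 and mm10, and the positions of 10 of 10 genes equalled GENCODE M21 (GRCm38). FPKM was multiplied by gene length and divided by a step estimated from the values of each library. This gave whole fragments, within 0.05, for 100% of the nonzero values under 500 fragments. Depth and the filter were taken from these fragments. Depth limits genes with few fragments, and intervals are exact Poisson at 95%.

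Trimmed mean of M values (TMM) factors were applied to the FPKM. The 15520 genes with 10 or more fragments in 3 or more libraries were tested on log2(FPKM + 0.1) with limma 3.58.1 (trend and robust) in R 4.3.3, with Benjamini-Hochberg adjustment over all of them. Single values were compared by an exact two-sided permutation test with scipy 1.17.1. Where a gene is said to lie lower or higher in every *Crlf2-/-* library, the shares over all tested genes were 6.45% and 5.24%. voom on the recovered fragments, which called 3 genes, other scalings, filters, pseudocounts and fold thresholds, the replicate number as a block and leaving out each library were alternatives. DESeq2, which the authors used on their counts, was not run here. At the same thresholds the paper reported many more genes than the 2 called here, and whether DESeq2 calls any of the 10 was not tested. The table held 0 columns of other samples. The 10 genes, the other lists and the tests were chosen with earlier results of these data known, and the adipose list after the members' values were seen. Named genes were the 10, the 3 most abundant of each list, the 5 most like *S100a9* and *Ngp*, and *Crlf2*, and others are marked in the text. Libraries with the same replicate number deviated together with r of -0.02, 0.12 and 0.12, and the numbers were not taken as pairs.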

Additional observations from a re-analysis of the deposited data

How the results depend on the processing

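None of the 6 tested genes among the 10 was called under any of the alternatives run, and no gene whose fold change is given crossed the threshold. *Hp* came close, with a limma adjusted p down to 0.0528 over the libraries left out. At an unadjusted limma p under 0.05 there was 1 of the 6 without WT replicate 2, WT replicate 3 or *Crlf2-/-* replicate 2. Of 343 fold changes of single genes, which did not include *Cxcl1*, 5 changed sign. Of 255 medians of lists 17 did, 16 of them with a library left out. The number of genes called among all tested was 2, and 6 without a filter, 1 with at least 10 fragments in every library, and 4 with the replicate number as a block, under which 1 list gene, *Hbb-bt*, was called (0 otherwise). It ranged from 1 (without WT replicate 1, WT replicate 2 or *Crlf2-/-* replicate 3) to 14 (without *Crlf2-/-* replicate 1), and was 8 without WT replicate 3, each with the genes and scaling factors of the full set. The sign changed for *S100a8* without WT replicate 3, with log2 fold changes from -0.019 to 0.79 over the libraries left out, for *S100a9* without WT replicate 1 (0.071) or *Crlf2-/-* replicate 3 (0.03), ranging from -0.52 to 0.071, for *Prtn3* without *Crlf2-/-* replicate 1, ranging from -0.46 to 0.96, and for *Chil3* without *Crlf2-/-* replicate 2, ranging from -0.23 to 0.82. The median of the tested genes among the 10 ranged from -0.23 to 0.20 with a library left out, and was -0.29 over all 10 with no filter. The causes were not tested beyond the library left out. The replicate block changed no call among the 10 genes. *Ngp*, *Ltf*, *Camp* and *Elane* had fewer than 10 fragments in most libraries, which limits what can be said of them. With no filter, 1 of the 10 genes, *Camp*, had an unadjusted limma p under 0.05 (0.033, adjusted p = 0.882) on 8 fragments in all.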
